A study of Homo sapiens with 24 samples.

Results

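The genes described here are 10 mucins and trefoil factors, MUC1, MUC2, MUC5AC, MUC5B, MUC13, MUC16, MUC20, TFF1, TFF2 and TFF3. They were taken by their symbols from the 61860 Ensembl gene identifiers of the count tables, and each symbol matched 1 row in each table.

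Mucins are very long glycoproteins whose repeated serine- and threonine-rich stretches carry dense O-linked glycans. The secreted, gel-forming mucins MUC2, MUC5AC and MUC5B build the mucus layer, whereas MUC1, MUC13, MUC16 and MUC20 stay anchored in the apical membrane of epithelial cells. Trefoil factors are small cysteine-rich peptides secreted together with mucins. In the upper gut, TFF1 and MUC5AC are known as products of the gastric surface epithelium and TFF2 of the mucous glands, whereas MUC2 and TFF3 mark intestinal goblet cells. These genes are used in pathology to describe the gastric or intestinal character of Barrett's esophagus, the columnar lining from which esophageal adenocarcinoma (EAC) arises.

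All libraries were made from OE33, a human EAC cell line, in 4 experiments with 3 treated and 3 control libraries each. The first used subcutaneous tumors that OE33 cells formed in male BALB/c-nu nude mice, which were 4 weeks old at purchase, ate either a diet rich in fat (HFD) or normal chow (ND) for 8 weeks before injection and kept it for the 21 days of tumor growth. The study selected HFD mice by their body weight, and nude mice lack T cells, so the host is an immunodeficient one. In the second, cultured cells received a plasmid for HA-tagged TRIM15, an E3 ubiquitin ligase, or the empty vector (EV), and RNA was taken after 48 hours. In the other two, cultured cells received shRNA plasmids against YY2, a zinc finger transcription factor, or against FOXRED1, a mitochondrial assembly factor of respiratory complex I, each with its own shControl group, for 72 hours. No plasmid is named for the xenografts, and every cultured group, controls included, was transfected. The question for these genes was how each treatment changed them against its own control, and how their levels compared among the 4 control groups. The labels number the libraries of a group without saying whether they came from separate cultures, so p-values measure the spread between these libraries.

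The 10 genes lie on 6 places of the genome (GENCODE v29, GRCh38). MUC2 (ENSG00000198788, chr11:1074875-1110511), MUC5AC (ENSG00000215182, chr11:1157953-1201138) and MUC5B (ENSG00000117983, chr11:1223066-1262172) follow each other on the plus strand. TFF3 (ENSG00000160180, chr21:42311667-42315651), TFF2 (ENSG00000160181, chr21:42346357-42351128) and TFF1 (ENSG00000160182, chr21:42362282-42366594) follow each other on the minus strand. MUC1 (ENSG00000185499) is at chr1:155185824-155192916, MUC13 (ENSG00000173702) at chr3:124905442-124953819 and MUC16 (ENSG00000181143) at chr19:8848844-8981342, all on the minus strand, and MUC20 (ENSG00000176945) is at chr3:195720882-195741123 on the plus strand.

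The repeats of the mucins are shown because they decide how well sequencing reads can be assigned. Only the commonest spacing of recurring 20-base words was searched for a repeat unit, and MUC2, without a complete coding range, was not searched. In MUC5AC and MUC5B 41.8% and 42.8% of these words recurred, but no unit with at least 3 exact copies was found. Such a unit was found in the longest coding sequence of MUC1, with a period of 60 bases and 19 exact copies, and of MUC20, with a period of 57 bases and 10 exact copies. Both are given from an arbitrary point of the repeat, 5′ to 3′, in lower case throughout.
MUC1 repeat: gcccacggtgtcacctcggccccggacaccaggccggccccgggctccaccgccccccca
MUC20 repeat: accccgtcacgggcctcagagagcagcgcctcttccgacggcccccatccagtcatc
Windows of 150 bases that occur again within the same transcript made up 24.3% of the MUC1 transcript, 15.9% of MUC20, 12.4% of MUC5B, 7.5% of MUC2 and 5.2% of MUC5AC, but 0.1% of MUC16 and none of the windows of MUC13 or the trefoil factors. Windows that also occur in another gene made up 45.5% of the MUC20 transcript, shared with the pseudogene MUC20P1 and with the overlapping transcript MUC20-OT1. For MUC5B the share was 1.3%, all with the antisense gene MUC5B-AS1, which had 0 counts in all 24 libraries. How the counting treated reads with several positions is not given in the sources used here, so the values of MUC20 are uncertain in a way that those of MUC13, MUC16 and the trefoil factors are not.

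Total counts ranged from 14299807 to 45994561 per library. TRIM15 was at 0 counts in the 3 EV libraries and at 5.41, 8.45 and 11.4 CPM, which are counts scaled to a common library size after TMM normalisation, with HA-TRIM15, at least 64.5-fold higher against a floor of 3 counts per library. YY2 fell with shYY2 (log2 fold change -1.82, SE 0.22, adjusted p = 1.3e-06, edgeR's quasi-likelihood test) and FOXRED1 with shFOXRED1 (-0.78, SE 0.11, adjusted p = 4.06e-05, edgeR). Columnar epithelial markers summed to between 11200 and 16300 CPM, with KRT20 at 0 in all libraries. Both groups of the FOXRED1 experiment stood apart from the other 3 experiments. The correlation of their mean log2 levels with those of the other 6 groups was 0.926 to 0.962, against 0.949 to 0.997 among those 6, and their squamous markers summed to between 11.7 and 17.3 CPM against 19.1 to 69.6 CPM elsewhere. The origin of these cells and the date of this experiment cannot be told apart from the experiment itself, so the comparisons of the ND xenografts and of the EV cells with other controls are given with and without it.

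TFF1 and MUC1 were the highest of the 10 genes in 3 of the 4 control groups, and TFF1 and MUC5AC in the FOXRED1 shControl group. Levels of different genes are compared per exonic length, in RPKM scaled over all 24 libraries. The full exonic length was used, only 551 bases for TFF1, with no allowance for fragment length or for repeats such as those of MUC1. The order of TFF1 and MUC1 is therefore uncertain where their values lie close, even where their libraries did not overlap. In the ND xenografts MUC1 led with 6.1 ± 0.137 RPKM (SD, n = 3), followed by TFF1 with 5.46 ± 0.07 (SD, n = 3), MUC13 with 3.76 ± 0.28 (SD, n = 3) and MUC16 with 1.37 ± 0.0493 (SD, n = 3). The other 6 genes were below 1 RPKM, and among them TFF2 and MUC5AC were neighbours whose libraries overlapped. In the EV group the same genes led in the order TFF1 at 4.53 ± 0.367 RPKM (SD, n = 3), MUC1 at 1.61 ± 0.107, MUC13 at 1.01 ± 0.129 and MUC16 at 0.765 ± 0.0138. In the YY2 shControl group the order was MUC1 at 4.25 ± 0.0416 RPKM (SD, n = 3), TFF1 at 3.65 ± 0.301, MUC16 at 2.22 ± 0.0819 and MUC13 at 0.596 ± 0.0545. In none of these 3 groups did the libraries of these 4 genes overlap with those of their neighbour in the order.

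In the FOXRED1 shControl group TFF1 reached 18.7 ± 1.96 RPKM (SD, n = 3) and MUC5AC 7.89 ± 0.332 (SD, n = 3), above MUC13 at 3.48 ± 0.249 and MUC1 at 2.75 ± 0.475, whose libraries overlapped. MUC16 was at 0.394 ± 0.042 RPKM and did not separate from MUC20 at 0.392 ± 0.045 or from TFF2 at 0.569 ± 0.147. MUC2, the goblet cell mucin, was the lowest gene above 0 counts in the ND, EV and FOXRED1 groups, with 0.0119 ± 0.00239, 0.0175 ± 0.00337 and 0.197 ± 0.0203 RPKM (SD, n = 3 each), and in the EV group its libraries overlapped with those of MUC5B. TFF3 had 0 counts in 23 of 24 libraries and 1 count in the remaining one, YY2 shControl replicate 3. A count of 0 allows up to 3 counts, which is 0.0628 to 0.205 CPM depending on the library, so TFF3 was not detectable at this depth and was not tested.

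**Figure D1:**
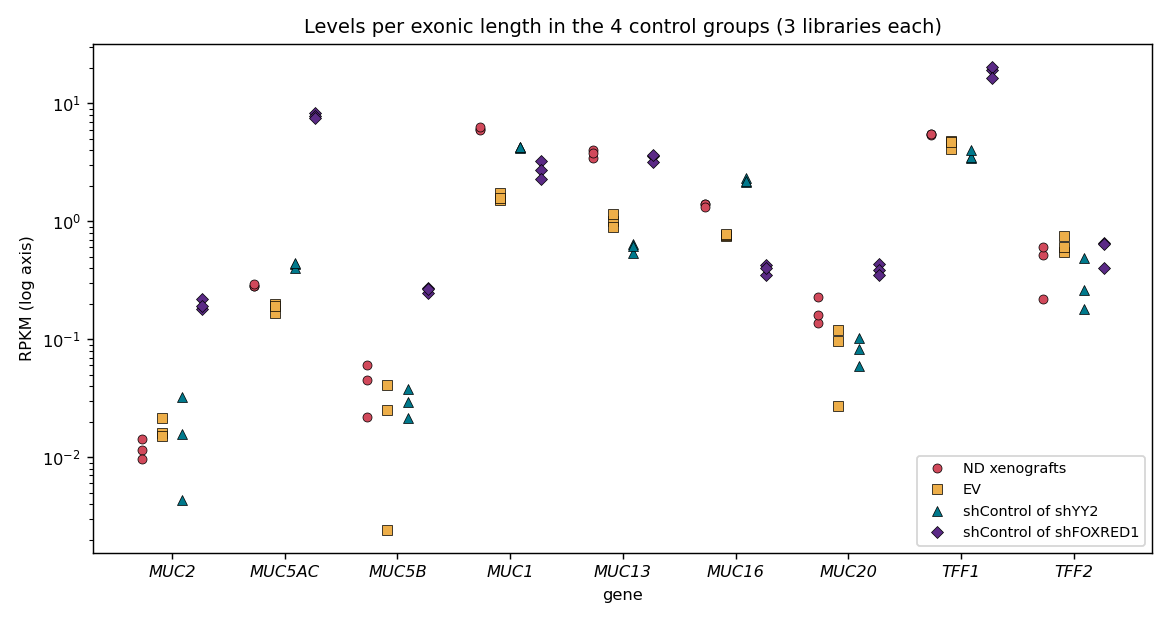
RPKM on a log axis of 9 genes in the 3 libraries of each control group, 1 symbol per library and 1 colour per group; TFF3 is left out because 11 of its 12 control libraries are at 0. The FOXRED1 shControl libraries (diamonds) lie above the other groups for MUC2, MUC5AC, MUC5B, MUC20 and TFF1 and below them for MUC16.

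Gel-forming mucins, membrane mucins and TFF1 all differed between the FOXRED1 shControl group and the YY2 shControl group, although both received a control shRNA. MUC5AC was at 7.58, 7.03 and 7.77 CPM in the YY2 shControl libraries and at 145, 137 and 134 CPM in the FOXRED1 shControl libraries, 18.6-fold lower in the former (log2 fold change -4.22, SE 0.063, adjusted p = 1.05e-24, edgeR). MUC5B (8.94-fold), MUC13 (5.82-fold), TFF1 (5.09-fold) and MUC20 (4.82-fold) were also lower in the YY2 shControl group, where MUC5B and MUC20 had only 5 to 12 counts per library. MUC2 had 1, 7 and 4 counts in the YY2 shControl libraries and 42, 42 and 36 in the FOXRED1 shControl libraries. It was called lower, but it passed the filter on low counts among the controls only through the FOXRED1 libraries, and its log2 fold change moved between -4.20 without YY2 shControl replicate 2 and -3.04 without YY2 shControl replicate 1. MUC16 ran the other way, at 102, 95.3 and 97.2 CPM against 19, 15.3 and 17.9 CPM, 5.6-fold higher (log2 fold change 2.49, SE 0.061, adjusted p = 1.26e-20, edgeR), and MUC1 was 1.53-fold higher. TFF2 did not pass (-0.9, SE 0.51, adjusted p = 0.12, edgeR). In sum 2 of the 9 tested genes were higher and 6, MUC2 among them, lower, in a comparison where 35.5% of all 17135 tested genes were called higher and 33% lower. These libraries come from separate experiments, so differences between experiments cannot be told apart from differences between the control shRNAs.

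Against the other controls, the position of the ND xenografts and of the EV cells depended on whether the FOXRED1 shControl group was included. In the ND xenografts MUC1 was 2.25-fold and MUC13 2.86-fold higher than in the 3 cultured control groups (log2 fold changes 1.17, SE 0.061, and 1.52, SE 0.082, adjusted p = 4.09e-14 and 6.51e-14, edgeR), and without the FOXRED1 experiment they were still higher by 1.2 and 2.24 on the log2 scale. MUC16 was 1.54-fold higher (0.62, SE 0.041), while MUC5AC (-1.6, SE 0.071) and TFF1 (-0.34, SE 0.11) were lower. MUC2 was also called lower (-1.78, SE 0.4), but was not tested without the FOXRED1 experiment. Without the FOXRED1 experiment the value of MUC5AC was 0.01 and that of MUC16 0.05, neither called, TFF1 was higher at 0.4 (adjusted p = 0.00394, edgeR) and MUC20 was called higher at 1.21. However, MUC20 then passed the filter on low counts only through the ND libraries. It had 16, 48 and 15 counts there, 10, 9 and 3 with EV and 8, 6 and 5 in the YY2 shControl group. Called genes were 3 higher and 3 lower of 9, against 34.5% and 31.9% of all tested genes. Without that experiment 4 were higher, MUC20 among them, and 0 lower of 8, against 35.8% and 35.7% of the 16873 genes then tested.

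In the EV cells, 8 of the 9 tested genes were lower than in the pooled shControl groups and 0 were higher, against 30.2% lower and 31.8% higher among all tested genes. MUC1 (-1.09, SE 0.085, adjusted p = 8.69e-11, edgeR), MUC5AC (-3.3, SE 0.081) and MUC16 (-0.29, SE 0.052) were lower with or without the FOXRED1 experiment, at -1.40, -1.20 and -1.54 without it. MUC13 turned from -0.51 (SE 0.12) to 0.75 and was then called higher, the calls of MUC5B, MUC20 and TFF1 were lost, and MUC2 was no longer tested. Without that experiment the called genes were 1 higher and 3 lower of 8, against 20.1% and 19.8% of all tested genes. With all 4 control groups, the call of MUC20 (-1.2, SE 0.38) was lost without EV replicate 3 (-0.74, adjusted p = 0.0963, edgeR). MUC5B (-1.96, SE 0.39), with 15, 1 and 12 counts in the EV libraries, ranged from -2.58, without EV replicate 1, to -1.45 over the fits that left out a library.

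The high-fat diet moved the membrane mucins in different directions. MUC13, a membrane mucin of the gastrointestinal tract, was at 6.75, 5.63 and 6.35 CPM in the HFD xenografts and at 14.4, 12.5 and 13.5 CPM in the ND xenografts. The groups lay far apart, and MUC13 fell 2.13-fold (log2 fold change -1.09, SE 0.091, adjusted p = 5e-08, edgeR). MUC16, a very large membrane mucin, was at 74.6, 68.2 and 73.6 CPM against 62.8, 62.8 and 58.8 CPM. All HFD values lay above all ND values, a rise of 1.17-fold (0.23, SE 0.044, adjusted p = 0.000387, edgeR). MUC1, the widespread membrane mucin of glandular epithelia, was at 31.1, 33.1 and 31.1 CPM with HFD and 29.3, 29 and 30.2 CPM with ND, and the difference of 0.11 (SE 0.05) did not pass the test (adjusted p = 0.0889, edgeR).

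Among the secreted mucins of the xenografts, MUC5AC was at 2.94, 2.73 and 3.25 CPM with HFD and 5.06, 5.11 and 5.26 CPM with ND. Its groups did not overlap, and it fell 1.7-fold (-0.77, SE 0.11, adjusted p = 3.58e-05, edgeR). MUC5B had 9 to 55 counts per library, its groups overlapped and its difference of -0.49 (SE 0.3) did not pass (adjusted p = 0.199, edgeR), but passed without ND replicate 3, its lowest library (-0.71, adjusted p = 0.0339, edgeR). MUC2, with 0 to 8 counts per library, was not tested.

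TFF1, the trefoil peptide secreted with MUC5AC, was at 3.9, 3.88 and 5.64 CPM with HFD and at 3.07, 3.06 and 3.12 CPM with ND. It rose 1.5-fold (0.58, SE 0.15, adjusted p = 0.00356, edgeR), so the pair of gastric genes TFF1 and MUC5AC was called in opposite directions. The third HFD library was the highest for TFF1, and without it the difference was 0.34 and did not pass (adjusted p = 0.0651, edgeR). TFF2 had 5 to 21 counts per library and a difference of 0.13 (SE 0.38) that did not pass (adjusted p = 0.807, edgeR). MUC20 was at 0.263, 0.601 and 0.525 CPM against 0.6, 1 and 0.698 CPM, with groups that touched at 0.6 CPM, and was called lower (-0.79, SE 0.31, adjusted p = 0.0439, edgeR). That call was lost without HFD replicate 1, HFD replicate 3 or ND replicate 2 (adjusted p = 0.182, 0.0646 and 0.327, edgeR), with the replicate block (0.0546) and with DESeq2 (0.195). Moreover, MUC20 passed the filter on low counts only through the ND libraries.

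In all, 2 genes rose and 3 fell, MUC20 with its uncertain call among them, of the 8 tested with HFD. Of all 17012 tested genes 25.6% were called higher and 23.9% lower. The counts hold reads assigned to human genes of whole tumors, in which the injected OE33 cells were human and the host a mouse. Among the tumor cells, fewer cells of a type and less RNA per cell cannot be told apart. Markers of the stroma summed to 23.7 to 26.5 CPM with HFD and 30.3 to 33 CPM with ND, nearly all of it COL1A1 (25.5 and 31.6 CPM), with ADIPOQ at 0 in both groups. Leukocyte markers summed to 14 to 14.2 CPM and 15.1 to 16.2 CPM and squamous markers to 53.3 to 56.1 CPM and 67.7 to 69.6 CPM. Foveolar markers of the gastric surface, mostly ANXA10 (179 and 195 CPM), summed to 182 to 185 CPM and 202 to 220 CPM. These 4 sums were lower with HFD while goblet markers, at 47.8 to 51.2 and 45.1 to 51.8 CPM, overlapped. Columnar markers were higher with HFD, at 12900 to 13000 CPM against 12000 to 12300 CPM with ND. Single markers did not all follow their sums. Of the 8 squamous markers tested 3 rose, KRT6A (1.55), KRT14 (1.24) and DSG3 (1.21), and 5 fell, and of the 4 foveolar markers 1 rose, VSIG1 (1.07), and 2 fell. Of the 9 columnar markers tested 3 rose, KRT7 (0.4), KRT8 (0.35) and KRT18 (0.41). The 4 that fell were VIL1 (-2.24), CDX2 (-0.57), CDH1 (-0.31) and ERBB2 (-0.12). The goblet marker SPDEF rose (0.94). In the cultured FOXRED1 shControl cells, which had no host, stroma markers summed to 24.4 to 26.1 CPM and leukocyte markers to 24 to 26.2 CPM. Neither sum is therefore a count of stroma cells or leukocytes. The part of these markers in the fall of MUC5AC and MUC13 was not tested.

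With HA-TRIM15 only 5 of the 10 genes could be tested, and 2 of these were called. MUC16 was at 44.4, 41.2 and 45.8 CPM with HA-TRIM15 and at 31.9, 32.8 and 33 CPM with EV. The groups did not overlap, and MUC16 rose 1.34-fold (log2 fold change 0.43, SE 0.051, adjusted p = 3.26e-05, edgeR). TFF1 was at 3.51, 2.93 and 3.35 CPM against 2.57, 2.2 and 2.51 CPM, a rise of the same size (0.43, SE 0.15) that lay just inside the threshold (adjusted p = 0.0499, edgeR). All 3 HA-TRIM15 values were above all EV values, but the call was lost with the replicate block (adjusted p = 0.0607, edgeR), without a filter on low counts (0.114) and in each of the 6 fits that left out a library (0.0557 to 0.16).

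MUC1 (9.11, 8.91 and 7.9 CPM against 7.94, 6.94 and 7.31 CPM), MUC13 (3.95, 3.97 and 4.11 CPM against 3.4, 3.91 and 3.03 CPM) and MUC5AC (3.75, 3.19 and 3.29 CPM against 3.35, 2.81 and 3.26 CPM) had log2 differences of 0.23 (SE 0.099), 0.22 (SE 0.14) and 0.13 (SE 0.14). None passed the test (adjusted p = 0.112, 0.275 and 0.574, edgeR), and the groups overlapped for MUC1 and MUC5AC. MUC2, MUC5B, MUC20 and TFF2, with 0 to 16 counts per library, were not tested. Of the 5 genes tested 2 rose and 0 fell, and all 5 log2 differences were above 0, where 12.5% of all 15745 tested genes were called higher and 9.53% lower. The median log2 difference was 0.23 over these 5 genes and -0.01 over all tested genes. Squamous markers summed to 53.4 to 58.1 CPM with HA-TRIM15 and 42.5 to 44.7 CPM with EV. Foveolar markers, mostly ANXA10 (154 and 173 CPM), summed to 163 to 175 CPM and 185 to 189 CPM and goblet markers to 32.6 to 36.5 CPM and 38.7 to 40.8 CPM. Leukocyte markers summed to 8.75 to 9.82 CPM and 7.74 to 8.22 CPM and stroma markers to 11.5 to 11.9 CPM and 12.4 to 13.8 CPM. The part of these markers in the rise of MUC16 was not tested.

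Knockdown of YY2 was followed by a fall of the gastric pair and a rise of the membrane mucins. TFF1 was at 0.426, 0.66 and 0.216 CPM with shYY2, from 4 to 11 counts, and at 1.92, 1.95 and 2.22 CPM with shControl, from 33 to 44 counts. This was the largest change of any of the 10 genes against its own control, a 4.7-fold fall (log2 fold change -2.23, SE 0.3, adjusted p = 4.69e-06, edgeR). MUC5AC was at 3.35, 2.7 and 2.7 CPM against 7.58, 7.03 and 7.77 CPM and fell 2.56-fold (-1.36, SE 0.13, adjusted p = 1.02e-07, edgeR). For both genes all shYY2 values were below all shControl values, but TFF1 passed the filter on low counts only through its shControl libraries.

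MUC13 was at 7.18, 6.3 and 7.3 CPM with shYY2 and at 2.25, 1.89 and 2.17 CPM with shControl, and rose 3.28-fold (1.71, SE 0.14, adjusted p = 1.22e-08, edgeR). MUC20, a small membrane mucin reported to bind the MET receptor, had 26, 16 and 15 counts against 8, 6 and 5 and rose 3.16-fold (1.66, SE 0.37, adjusted p = 0.000762, edgeR). However, MUC20 passed the filter on low counts only through the shYY2 libraries. MUC16 was at 137, 135 and 136 CPM against 102, 95.3 and 97.2 CPM, a rise of 1.38-fold with very close replicates (0.47, SE 0.033, adjusted p = 2.59e-09, edgeR). MUC1 was at 26.5, 23 and 30.3 CPM against 19.9, 20.4 and 20.3 CPM and rose 1.32-fold (0.4, SE 0.083, adjusted p = 0.0004, edgeR). In these 4 genes the groups did not overlap, and the shYY2 libraries of MUC1 spread more than its controls.

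MUC5B had 12, 17 and 16 counts with shYY2 and 10, 12 and 8 with shControl, a difference of 0.67 (SE 0.31) that did not pass (adjusted p = 0.0669, edgeR), but passed without YY2 shControl replicate 2 (0.86, adjusted p = 0.0474, edgeR). MUC2 (1 to 7 counts) and TFF2 (1 to 8 counts) were not tested. In sum 4 genes rose, MUC20 among them, and 2 fell, TFF1 among them, of 7 tested. Of all 16006 tested genes 36.8% were called higher and 38.1% lower. Foveolar markers, mostly ANXA10 (32.1 and 102 CPM), summed to 39 to 42.4 CPM with shYY2 and 107 to 109 CPM with shControl. Goblet markers, nearly all FCGBP, summed to 27.9 to 30.9 CPM and 40.1 to 42.2 CPM and squamous markers to 19.1 to 21.3 CPM and 60.2 to 62.6 CPM. Stroma markers, in cultured cells, summed to 43.9 to 46.4 CPM and 10.9 to 11.3 CPM, nearly all of it COL1A1 (42.7 and 10.6 CPM). Columnar markers summed to 15700 to 16300 CPM and 11800 to 12600 CPM and leukocyte markers to 9.87 to 10.5 CPM and 13.4 to 14.9 CPM. The foveolar, goblet, squamous and leukocyte sums were lower with shYY2 and the stroma and columnar sums higher, while the mucins and TFF1 moved both ways. Single markers did not all follow their sums. Of the 8 columnar markers tested 3 rose, EPCAM (0.39), KRT19 (0.64) and ERBB2 (0.64). The 4 that fell were KRT8 (-0.64), KRT18 (-0.31), CDH1 (-0.23) and KRT7 (-0.09). Of the 3 foveolar markers tested 1 rose, TSPAN8 (0.33), and 2 fell. The part of these markers in the changes was not tested.

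Knockdown of FOXRED1 was followed by a rise of the gel-forming mucins MUC5AC and MUC5B and of all 4 membrane mucins, in the experiment whose controls already stood apart. MUC5AC was at 259, 256 and 281 CPM with shFOXRED1 and at 145, 137 and 134 CPM with shControl. It rose 1.92-fold (log2 fold change 0.94, SE 0.057, adjusted p = 1.56e-09, edgeR). MUC5B, a gel-forming mucin of airway and salivary glands, was at 9.59, 9.09 and 9.44 CPM against 5.06, 4.64 and 5.03 CPM and rose 1.9-fold (0.93, SE 0.14, adjusted p = 5.1e-05, edgeR). The groups of both genes lay well apart. MUC2, their neighbour on chromosome 11, was at 1.33, 2.49 and 1.44 CPM against 2.31, 2.79 and 2.45 CPM, with overlapping groups, and its difference of -0.5 (SE 0.28) did not pass (adjusted p = 0.175, edgeR). Without shFOXRED1 replicate 2, the highest of its group, MUC2 was called lower (-0.86, adjusted p = 0.0449, edgeR).

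MUC1 was at 29.8, 32.3 and 27.6 CPM with shFOXRED1 and at 15.3, 12.9 and 10.9 CPM with shControl, a rise of 2.28-fold (1.19, SE 0.12, adjusted p = 4.4e-07, edgeR). MUC16 was at 33.6, 35 and 35 CPM against 19, 15.3 and 17.9 CPM and rose 1.98-fold (0.99, SE 0.094, adjusted p = 3.22e-07, edgeR). MUC13 was at 20.6, 20.2 and 17.9 CPM against 12.6, 11.2 and 13 CPM and rose 1.6-fold (0.68, SE 0.11, adjusted p = 0.000101, edgeR). All treated values of these 3 genes were above all control values. MUC20 had 58, 97 and 48 counts against 34, 25 and 22 and rose 2.33-fold (1.22, SE 0.26, adjusted p = 0.00111, edgeR), again without overlap.

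TFF1 fell against the mucins, from 10.6, 11.2 and 9.17 CPM with shControl to 7.21, 6 and 5.75 CPM with shFOXRED1. All treated libraries were below all controls, a 1.63-fold fall (-0.71, SE 0.14, adjusted p = 0.000825, edgeR). TFF2 had 7, 1 and 3 counts against 10, 5 and 8 and was not tested. Of the 8 genes tested 6 rose and 1 fell, where 16.8% of all 15730 tested genes were called higher and 19.7% lower. The median log2 difference was 0.93 over these 8 genes and 0.01 over all tested genes. Goblet markers, to which FCGBP adds most, summed to 415 to 449 CPM with shFOXRED1 and 252 to 269 CPM with shControl. Foveolar markers, mostly ANXA10 (166 and 256 CPM), summed to 163 to 182 CPM and 261 to 271 CPM. Stroma markers summed to 38.6 to 42.4 CPM and 24.4 to 26.1 CPM, with COL1A1 higher (0.71, adjusted p = 1.53e-06, edgeR), and leukocyte markers to 20.4 to 23.7 CPM and 24 to 26.2 CPM. The part of these markers in the changes was not tested.

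**Figure D2:**
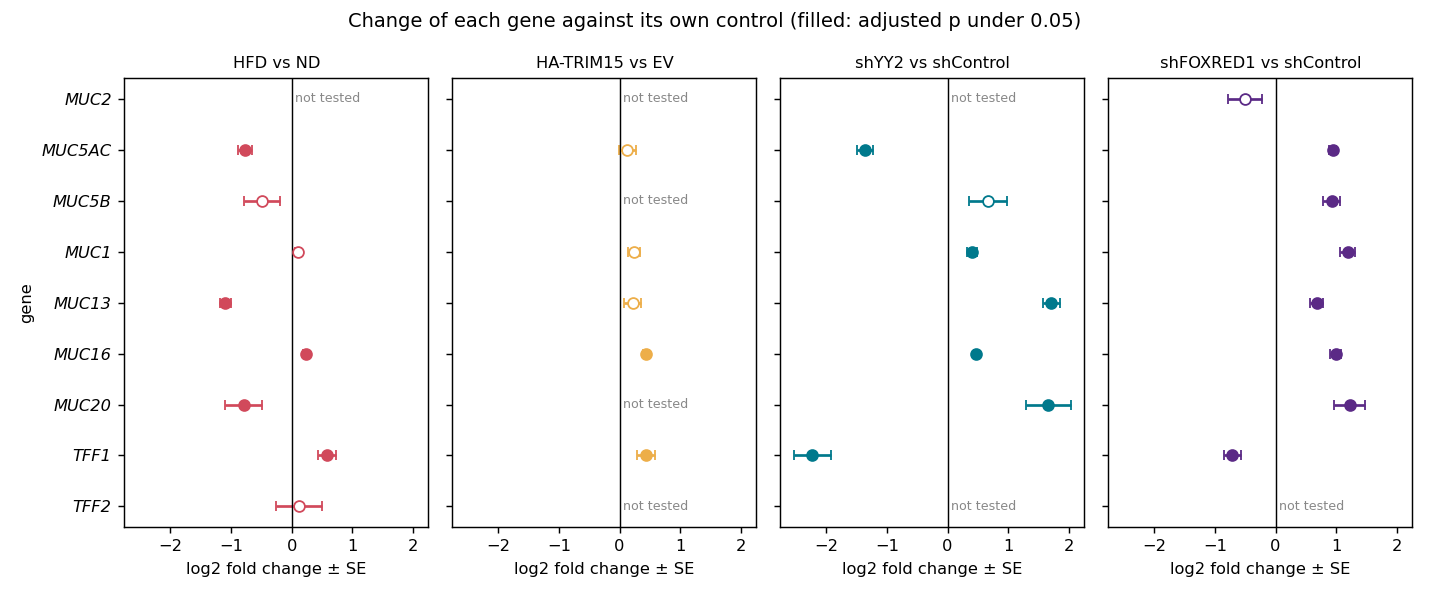
Log2 fold change of 9 genes against the control of each experiment, with bars of 1 standard error; filled symbols passed an adjusted p of 0.05 in edgeR's quasi-likelihood test. MUC16 lies above 0 in all 4 panels, and TFF1 lies above 0 with HFD and HA-TRIM15 and below 0 with shYY2 and shFOXRED1.

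Over the 4 experiments, whose control groups are separate, MUC16 was the only one of the 10 genes called in the same direction each time, with rises of 0.23, 0.43, 0.47 and 0.99 on the log2 scale for HFD, HA-TRIM15, shYY2 and shFOXRED1. MUC1 rose in the 2 knockdown experiments and did not pass in the others. TFF1 was called in all 4, higher with HFD and HA-TRIM15 and lower in both knockdowns, but not all of these calls were firm. That with HA-TRIM15 was lost with the replicate block, without a filter and in every fit that left out a library. The HFD call was lost without HFD replicate 3, and with shYY2 TFF1 passed the filter only through its shControl libraries. MUC13 moved against TFF1 in 3 of them, falling with HFD and rising in both knockdowns, and MUC5AC fell with HFD and shYY2 and rose with shFOXRED1. MUC2, TFF2 and TFF3 were called in no experiment, but MUC2 and TFF2 were tested in 1 each and TFF3 in none.

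**Figure D3:**
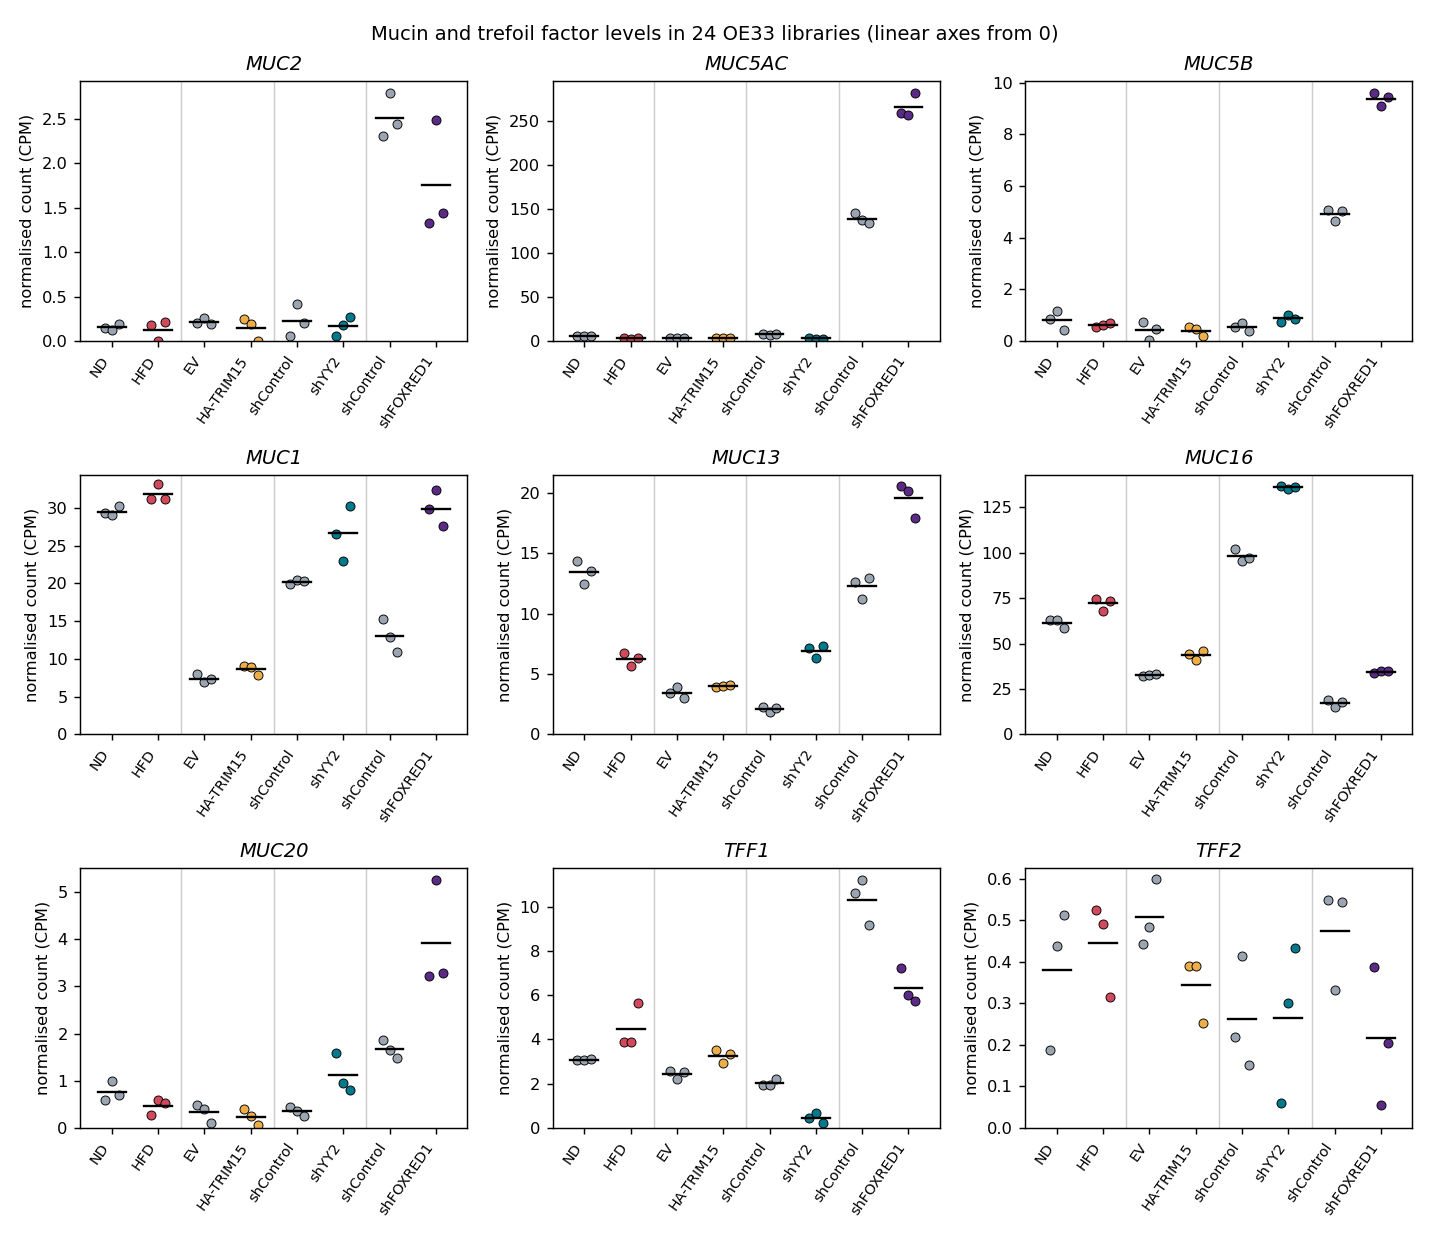
Normalised counts (CPM, linear axes from 0, a scale of its own for each gene) of 9 genes in the 24 libraries, 1 point per library with a line at the group mean; grey points are controls and coloured points treated libraries, and vertical lines separate the 4 experiments. MUC5AC is at 134 CPM or more in every library of the FOXRED1 experiment and at 7.77 CPM or less in all others, so its other changes are better read from the values in the text.

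The genes whose levels followed each member most closely were sought among 14279 genes with a mean of at least 1 CPM, on log2(CPM + 0.5) values centred on the mean of each experiment. The 24 libraries share the contrast between treated and control within each experiment, so the correlations describe that contrast and carry no p. MUC1 and MUC16 followed each other at Pearson's r = 0.9 (n = 24 libraries), and MUC13 ran against TFF1 at r = -0.86 and with MUC20 at 0.71. MUC5AC was nearly unrelated to the other members, with r between -0.14 and 0.3. The closest genes of all were HOXB3 (0.94) and DRAM1 (0.93) for MUC1, PSPC1 (0.97) and BRPF3 (0.96) for MUC5AC, and IFIT3 and AHCYL2 (0.95 each) for MUC16. For MUC13 they were KIF16B and RAPGEF1 (0.96 each), for TFF1 ZPR1 and SH3KBP1 (0.94 each), for MUC20 ZC3H3 (0.9) and DENND6B (0.89), and for MUC5B, with its low counts, INTS6-AS1 (0.79) and ZNF444 (0.78).

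**Figure D4:**
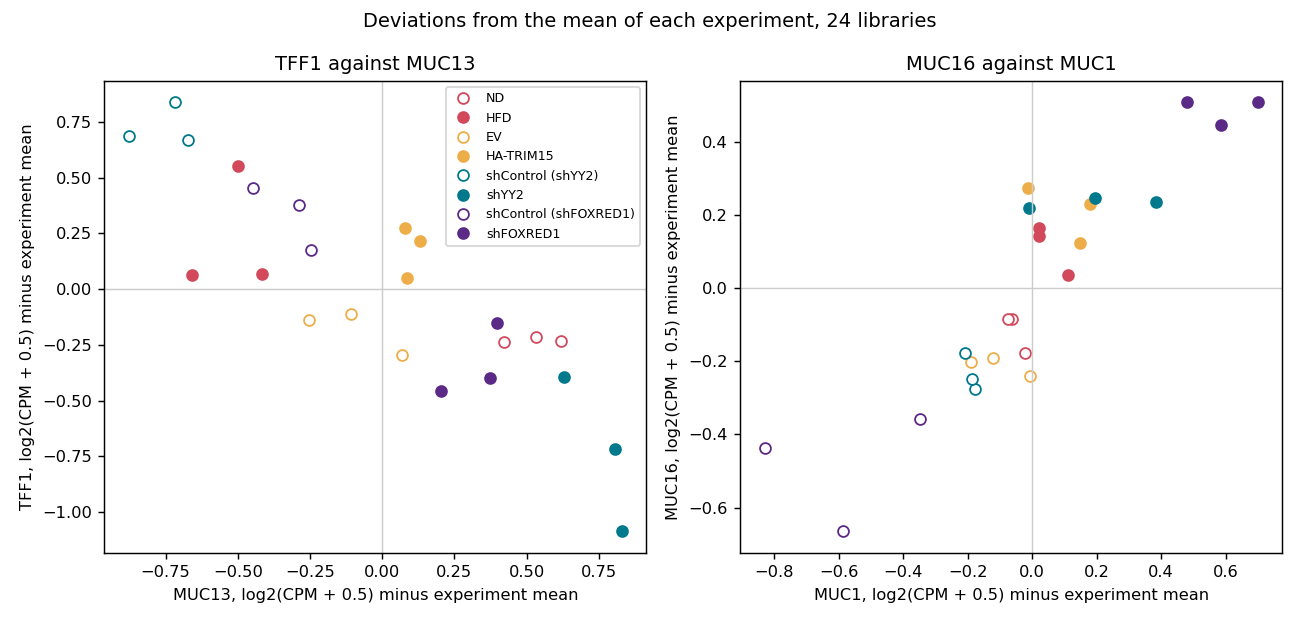
Left, TFF1 against MUC13, and right, MUC16 against MUC1, as log2(CPM + 0.5) minus the mean of each experiment, 1 point per library, coloured by experiment with filled points for treated libraries. In the left panel the HA-TRIM15 experiment is the only one whose treated libraries lie higher on both axes than the mean of its controls, and in the right panel the treated libraries lie towards the upper right and the controls towards the lower left.

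The other lists are given by their counts, which are to be read against the shares of all tested genes called higher and lower, 25.6% and 23.9% with HFD, 12.5% and 9.53% with HA-TRIM15, 36.8% and 38.1% with shYY2 and 16.8% and 19.7% with shFOXRED1. Other mucin genes were mostly silent, with 5 or 6 of 15 listed genes tested. MUC6, the gel-forming mucin of gastric glands that is known to be secreted with TFF2, was at most at 0.0609 CPM in any library. With shYY2, 5 of 6 tested genes of this list rose and 0 fell, against those 36.8% and 38.1%. The membrane mucin MUC3A was at 34 ± 4.19 CPM against 8.06 ± 0.161 CPM (SD, n = 3 each, log2 fold change 2.08), and OVGP1 (1.48) rose too. With HFD 2 rose and 3 fell of 6. MUC4, a membrane mucin (0.64), and MUC3A (0.37) were higher, and OVGP1 (-0.35), CD164 (-0.16) and MUC15 were lower. MUC3A is named here although its HFD and ND libraries overlapped. MUC15, a membrane mucin with a mean below 1 CPM that was named after its values were seen, was at 0.177 CPM with HFD against 1.06 CPM with ND (-2.38). With shYY2 it was at 0.819 against 0.242 CPM (1.75). Its lower groups were too low to pass the filter on low counts, so both calls rest on the group where it was high. With HA-TRIM15 1 of 5 rose, MUC3A (0.31), and with shFOXRED1 1 of 5 fell, again MUC3A (-0.39).

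The enzymes that build O-linked glycans on mucins were expressed broadly, with 26 to 28 of 35 listed genes tested. With HFD 12 rose and 5 fell (median log2 difference 0.15, against -0.01 over all tested genes), among them ST3GAL1, a sialyltransferase, at 246 ± 6.78 CPM against 155 ± 3.48 CPM (SD, n = 3 each, log2 fold change 0.66), and GCNT1, a core 2 branching enzyme (0.72), with GCNT3 (-0.38) and B4GALNT3 (-0.34) lower. HA-TRIM15 raised 5 and lowered 3, led by FUT3 (0.38) and GALNT5 (0.26) and by GALNT10 (-0.23) and ST6GALNAC4 (-0.19). With shYY2 8 rose and 12 fell of 27, where 36.8% of all tested genes rose and 38.1% fell, and B4GALNT3 (1.68) and GCNT3 (1.25), both lower with HFD, were higher, while GALNT18 (-1.0) and FUT2 (-0.56) were lower. With shFOXRED1 4 rose and 7 fell, with GALNT4 (1.47) and ST3GAL2 (0.47) higher and GALNT5 (-0.7) and GALNT6 (-0.65), which start O-glycan chains, lower.

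Genes of the secretory lineage, which fold, pack and release mucins or mark mucous cells, were lower more often than higher with HFD, 5 rising and 13 falling of 24 tested (median -0.22). SPDEF, a transcription factor of goblet cells, rose from 1.53 ± 0.19 to 2.97 ± 0.134 CPM (SD, n = 3 each, 0.94), and RAB27A, a GTPase of secretory granules, rose (0.54), whereas TSPAN8 (-1.29) and ERN2, an endoplasmic reticulum stress sensor of mucous cells (-0.65), fell. With HA-TRIM15 5 rose and 2 fell of 22, led by KLF4 (0.62) and GATA6 (0.58) and by FOXA2 (-0.33) and ANXA10 (-0.17). With shYY2 11 rose and 4 fell of 22 (median 0.22), against 36.8% and 38.1% of all tested genes, with BCAS1 (2.15) and ERN2 (1.18) higher and ANXA10 (-1.67) and AGR2, a disulfide isomerase needed for mucin folding (-1.0), lower. With shFOXRED1 7 rose and 5 fell of 22, with BCAS1 (1.24) and ZG16B (0.92) higher and VSIG1 (-1.58), a gastric surface protein, and GATA6 (-0.83) lower. This list holds 4 of the 6 foveolar markers, ANXA10, VSIG1, CTSE and TSPAN8.

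Of the 9 listed partners of the trefoil factors, 2 were tested in each experiment. FCGBP, a mucus protein that binds trefoil peptides, rose with shFOXRED1 (435 ± 17.5 CPM against 261 ± 11 CPM, SD, n = 3 each, 0.74), fell with shYY2 (-0.55) and HA-TRIM15 (-0.2), and did not pass with HFD (-0.01, adjusted p = 0.843, edgeR). F2RL1, a protease-activated receptor, fell with HFD (-0.41), shYY2 (-0.61) and shFOXRED1 (-0.32) and rose with HA-TRIM15 (0.18). GKN2, which binds TFF1 in the stomach, was at 0 in all 24 libraries. The other named changes of these lists passed the adjusted threshold in edgeR, and the lists were described by their counts and medians alone.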

How the data were processed

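RNA-seq libraries of 8 groups with 3 OE33 libraries each were analysed, and the labels gave every library a group. The authors deposited, for each experiment, a table of unnormalised counts per gene. The aligner, counter and annotation are not given in the sources used here. The submitters' processing notes name the builds hg38 and mm10 without their roles, and how mouse reads were handled is not stated. The study's methods name TRIzol and a library kit that does not mark strand, the labels an RNeasy and a directional kit, and whether counting used the strand is unknown. All 37 mitochondrial genes were at 0 counts.

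In R 4.3.3, filterByExpr (10 counts, 15 in total) selected genes, TMM scaled the libraries, and edgeR 4.0.16 (glmQLFit, glmQLFTest) tested them with Benjamini-Hochberg adjustment over all tested genes, at 0.05. The SE of a log2 fold change is its size over the root of F. The 4 control groups were compared in 1 fit. CPM were scaled within an experiment, RPKM over all 24 libraries with GENCODE v29 exonic lengths, which holds 94.3% of the identifiers. Mucin repeats were sought in the coding sequences of GENCODE v29, where 9 of the 10 genes have a complete coding range. The coding sequences of the trefoil factors are not reported here. The procedure was tested on simulated data.

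The genes and lists were chosen with earlier results of these data known. The lists hold other mucins, O-glycan enzymes, secretory lineage, trefoil partners and markers of columnar, squamous, goblet, foveolar, leukocyte and stroma cells. Beside the 10 genes and the targeted genes, the text names from each list without markers the 2 called genes that rose and the 2 that fell most, where the mean reached 1 CPM and treated and control libraries did not overlap, and for each of the 10 genes with that mean its 2 most correlated genes. Alternatives were DESeq2 1.42.0, its size factors, no filter, a minimum of 10 counts in all libraries, the replicate block, leaving out each library and, added after seeing the data, leaving out the FOXRED1 experiment.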

Additional observations from a re-analysis of the deposited data

How the results depend on the processing

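Most calls kept their direction and their side of the threshold. Of the values of single genes, 44 of 52 alternatives with HA-TRIM15, 76 of 85 with HFD, 73 of 74 with shYY2 and 87 of 88 with shFOXRED1 did so. With HA-TRIM15 the number of genes called higher was 1 in place of 2 without a filter, under the replicate block, with DESeq2, which gave TFF1 no adjusted p, and in every fit that left out a library. Fits leaving out a library gave between 1247 and 2594 higher and between 787 and 2506 lower genes among all tested with HA-TRIM15, between 1 and 2 of the mucins and trefoil factors higher with HFD, and between 1 and 2 lower with shFOXRED1. The uncalled difference of TFF2 changed its sign, with a range of -0.14 to 0.41 with HFD and -0.31 to 0.16 in the ND xenografts against the cultured controls. Requiring 10 counts in every library left 1 of the genes lower with shYY2, 5 in the EV cells and 3 in the YY2 against the FOXRED1 shControl group, because fewer genes were tested. Without a filter, the call of TFF1 in the ND xenografts against the cultured controls was lost (adjusted p = 0.0588, edgeR).

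Without the FOXRED1 experiment, the genes lower in the ND xenografts were 0, with MUC5AC at 0.0139, MUC5B at 0.84, TFF1 at 0.40 and TFF2 at 0.0122. In the EV cells 1 was higher and 3 lower, with MUC13 at 0.75 and TFF1 at 0.30, and among all genes 3388 were higher and 3333 lower. The cause was not tested.

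Groups share replicate numbers, but the labels give no meaning to them. The correlation of the deviations of same-numbered libraries was 0.046, 0.0245 and 0.118 with shFOXRED1 and -0.0427 to 0.118 in the other experiments, and in none were all 3 above 0.1, so the numbers were not taken as pairing. This verdict depends on how the deviations are computed. With the replicate block the genes called were 2 higher and 2 lower with HFD, 1 and 0 with HA-TRIM15, 4 and 2 with shYY2 and 6 and 1 with shFOXRED1. The few counts of MUC2, MUC20 and TFF2 limit what could be detected for them.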
